A study of Homo sapiens with 27 samples.

Results

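Annexins are proteins that bind acidic phospholipids of cell membranes when calcium rises, and 9 annexin genes (ANXA1, ANXA2, ANXA3, ANXA4, ANXA5, ANXA6, ANXA7, ANXA9 and ANXA11) were followed here through 27 RNA-Seq libraries of 2 human cell lines of invasive lobular breast carcinoma, MM134 and SUM44. These 9 genes were taken by name from the 60619 genes of the deposited table. The libraries formed 9 groups of 3. For MM134 there were parental cells and the LTED variants A, B, D and E, and for SUM44 the parental cultures SUM44F and SUM44PE and the LTED variants A and B. LTED cells, which the study calls clones, are estrogen-independent variants that emerged during long-term estrogen deprivation and were kept in medium with charcoal-stripped serum. Parental cells were washed and held in such medium for 3 days before collection. SUM44F cells were made from SUM44PE cells, which had a medium of their own, by 3 months of culture with standard fetal bovine serum. The SUM44 variants were derived from SUM44F, which was the parental culture they were compared with. The 3 libraries of a group came from wells seeded side by side, so the spread between them is that of the wells, and each variant stands for a single derivation. The counts of SUM44 LTED-A replicates 2 and 3 differed by less than sampling noise alone would give, so they were counted as 1 sample, by their mean, which leaves n = 2 for that variant and 26 samples in all.

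Annexins share a disc-shaped core that carries the calcium sites and lies on the membrane, and differ in the N-terminal tail, where partner proteins bind. ANXA1 is induced by glucocorticoids, was first described as an inhibitor of phospholipase A2 and, once secreted, acts on formyl peptide receptors. ANXA2 pairs with S100A10 at the plasma membrane, where the complex binds plasminogen and its activator, and several annexins help to reseal torn membranes. In breast epithelium, ANXA1 is a familiar marker of basal and myoepithelial cells.

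Read counts were compared with edgeR within each cell line. In what follows a gene is said to have risen or fallen where it changed by more than 1.5-fold with an adjusted p below 0.001, the study's thresholds. Levels are normalized CPM (CPM being counts scaled to a common library size, on a single scale for all libraries), given as mean ± SD with n = 3 unless stated. The members were chosen by name, with the fold changes between LTED and parental cells in these same libraries already known, so their changes are given as a description, with fold changes and standard errors and without p-values. Lists of related genes were chosen with earlier results of these data known too. Adjusted p-values quoted for other genes show only whether the thresholds were passed, and are likewise a description. All 9 genes passed the filter on low counts in every comparison. The 27 libraries held 28583554 to 134882175 counts.

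The cells carried luminal markers throughout. Keratins 8, 18 and 19, EPCAM, GATA3 and FOXA1 summed to 4013 to 7033 CPM in each library. SUM44F replicate 1 stood apart by its stromal and some of its immune transcripts. The sum of 6 stromal and endothelial markers was 209 CPM there, 33.7 and 39.96 CPM in the other 2 SUM44F libraries and 7.73 to 29.6 CPM in the other groups. None of these 6 genes was at 0 throughout any group. DCN, a matrix proteoglycan of fibroblasts, was at 39.0 CPM in SUM44F replicate 1 against 0.547 and 0.768 CPM in replicates 2 and 3. COL1A2 and PDGFRB were likewise high in replicate 1 only, at 33.7 and 10.8 CPM. PECAM1, also among the 6, was high in all SUM44F libraries, at 27.3, 26.8 and 21.7 CPM. In SUM44PE it was at 7.40, 8.09 and 8.37 CPM, so that it differed between the parental cultures in the direction of ANXA1. The leukocyte gene PTPRC was at 2.60 CPM in it against 0.332 and 0.423 CPM in replicates 2 and 3, and the monocyte gene CD14 at 1.82 CPM against 0.0586 and 0.0445 CPM. The annexin changes against SUM44F are therefore also given without that library, as are those of the other genes named with a change in SUM44. The summed level of 6 immune markers was 37.9 to 50.4 CPM in SUM44F, 10.9 to 11.8 CPM in SUM44 LTED-B and 16.6 CPM in the lower of the SUM44 LTED-A samples, and it was 0.801 to 1.23 CPM in MM134 parental cells against 4.75 to 19.5 CPM in the MM134 variants, so that it moved in the direction of ANXA1 in both lines. ITGAM and LYZ made up most of it. ITGAM was at 45.2, 43.9 and 37.0 CPM in the 3 SUM44F libraries. The T cell gene CD3E was listed at 0 in every library of 5 of the 9 groups and did not exceed 0.152 CPM in any library. The sum of 6 basal and myoepithelial markers, mostly MYLK and ACTA2, was 9.29 to 15.2 CPM in SUM44F, 3.10 to 5.21 CPM in the SUM44 variants, 8.55 to 10.0 CPM in MM134 parental cells and 11.1 to 24.4 CPM in the MM134 variants. The basal keratin KRT5 was listed at 0 in 4 of the 9 groups and did not exceed 0.152 CPM in any library. TP63 was at 3.28, 2.71 and 2.71 CPM in SUM44F and 1.00, 1.16 and 1.23 CPM in SUM44PE. KRT17 was at 0.825, 0.645 and 0.546 CPM against 0.136, 0.106 and 0.176 CPM. Of 4 basal markers tested, 0 rose and 2 fell in each SUM44 variant, beside 7.28% and 8.57% of all genes lower. Of 3 tested in MM134, 2 rose in LTED-B, and 1 rose and 1 fell in each other variant. Among all genes, 8.11% to 10.5% were higher and 7.75% to 10.3% lower in the MM134 variants. The part of these markers in the annexin results was not tested. In bulk libraries, fewer cells with a transcript and less transcript per cell cannot be told apart.

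The 3 genes with the widest range of levels differ in the sequence before their start sites. For ANXA1 and ANXA3 this sequence is shown because their levels spanned 553-fold and 25.1-fold across the group means. It was read from RefSeq (GRCh38.p14), 5′ to 3′, plus strand, from chr9:73151615-73151864 and chr4:78551520-78551746, and capitals mark matches to the motifs named next.
ANXA1: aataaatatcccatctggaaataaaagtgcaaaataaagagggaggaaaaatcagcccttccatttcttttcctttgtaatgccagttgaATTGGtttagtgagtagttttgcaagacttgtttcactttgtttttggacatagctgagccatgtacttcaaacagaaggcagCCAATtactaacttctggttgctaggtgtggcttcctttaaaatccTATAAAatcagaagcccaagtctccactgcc
ANXA3: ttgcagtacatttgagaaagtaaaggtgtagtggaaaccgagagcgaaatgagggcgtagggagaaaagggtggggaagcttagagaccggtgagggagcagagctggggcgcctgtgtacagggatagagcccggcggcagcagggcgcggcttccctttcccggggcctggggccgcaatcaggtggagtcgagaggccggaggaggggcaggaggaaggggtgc
Of 6 motifs searched on both strands over 250 bases before the start, where matches may overlap, TATAAA occurred in 10.8% of 34943 promoters, CCAAT in 32.03%, GGGCGG in 42.5%, the AP-1 motif TGANTCA in 6.59%, the glucocorticoid receptor half-site AGAACA in 12.4%, and the palindromic estrogen response element in 0.0401%. ANXA1 held 1 TATAAA and 2 CCAAT matches (ATTGG is CCAAT on the other strand), and no CG dinucleotide, which was also so for 6.08% of all promoters. ANXA3 held none of the 6 motifs in its 250 bases, of which the last, exonic ones are not printed, but 18 CG dinucleotides. ANXA2, whose window lies partly in exons and is not printed, held 28 CG dinucleotides, 1 TATAAA, 3 GGGCGG and 1 TGANTCA match. The median promoter held 11 CG dinucleotides. A match is a description of the letters and not a binding site.

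ANXA1 rose in all 4 MM134 variants and fell to a few counts in both SUM44 variants. The gene (ENSG00000135046) lies at chr9:73151865-73170393 on hg38. Parental MM134 libraries held 0.143, 0.297 and 0.389 CPM, which is 5 to 12 counts a library. LTED-A held 11.4, 10.7 and 9.90 CPM and LTED-B 2.83, 2.72 and 3.16 CPM. LTED-D held 2.16, 2.11 and 1.90 CPM and LTED-E 3.95, 3.75 and 3.67 CPM. Every library of every variant was above the highest parental library, and the variants themselves did not overlap, with LTED-A highest. The log2 fold changes were 5.28 (SE 0.16) in LTED-A, 3.40 (SE 0.19) in LTED-B, 2.91 (SE 0.20) in LTED-D and 3.79 (SE 0.18) in LTED-E. Because the parental level rests on 28 counts in all, the ratio of summed counts per depth was also computed. It was 39.8 for LTED-A, with an exact 95% interval of 27.5 to 60.1 that covers counting error only, and 10.6 (7.24 to 16.3) for LTED-B, 7.51 (5.06 to 11.6) for LTED-D and 13.9 (9.50 to 21.1) for LTED-E.

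In SUM44F cells ANXA1 was at 24.7, 22.9 and 22.5 CPM, and in SUM44PE cells at 7.76, 8.51 and 7.43 CPM. In SUM44 LTED-A it was at 0.0494 and 0.0351 CPM, and in LTED-B at 0.0903, 0.0247 and 0.0218 CPM, which is 1 to 4 counts a sample. The variants did not overlap with either parental culture, while they overlapped with each other. The log2 fold change was -9.15 (SE 0.28) in LTED-A and -9.24 (SE 0.25) in LTED-B. In summed counts per depth, SUM44F exceeded LTED-A 597-fold (exact 95% interval 274 to 1626) and LTED-B 638-fold (293 to 1739). Each variant entered with 6 counts. For LTED-A, 4 of these are the rounded mean of replicates 2 and 3, so its interval does not rest on raw counts alone. Without SUM44F replicate 1 the log2 fold changes were -9.12 and -9.20, and against SUM44PE -7.54 and -7.64. The value in LTED-B depended on single libraries with few counts, and was -9.89 without LTED-B replicate 1 and -8.69 without LTED-B replicate 3. ANXA1 was called in the comparison of the parental cultures too, with SUM44PE lower by a log2 fold change of -1.57 (SE 0.12), or -1.53 without SUM44F replicate 1. In SUM44F replicates 1, 2 and 3, ANXA1 was at 24.7, 22.9 and 22.5 CPM where the stromal marker sums were 209, 39.96 and 33.7 CPM. PECAM1, which is part of those sums, was at 27.3, 26.8 and 21.7 CPM.

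**Figure D1:**
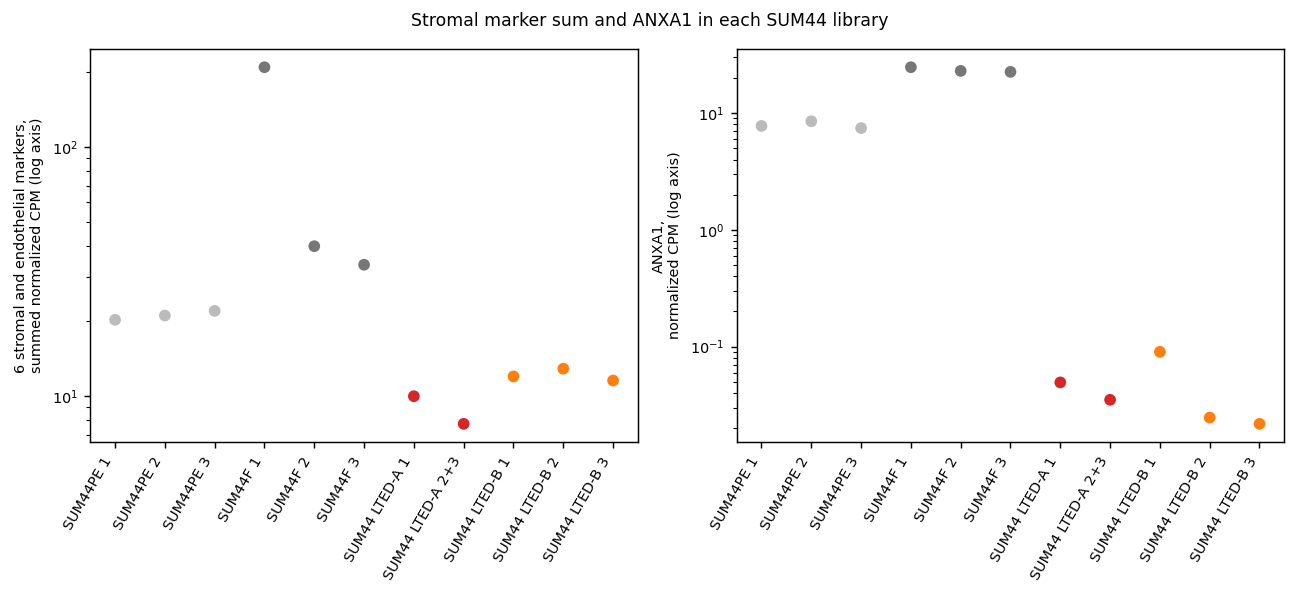
Summed level of 6 stromal and endothelial markers (left) and level of ANXA1 (right) in each SUM44 library, as normalized CPM on log axes. SUM44F replicate 1 stands apart in the marker sum at 209 CPM, while ANXA1 was between 22.5 and 24.7 CPM in all 3 SUM44F libraries and below 0.1 CPM in every LTED library. The sum includes PECAM1, which was between 21.7 and 27.3 CPM in all 3 SUM44F libraries.

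Receptors of ANXA1 were measured at low levels. FPR3, a formyl peptide receptor of monocytic cells, was at 6.22 ± 0.499 CPM in SUM44F, 3.28 ± 0.307 CPM in SUM44PE and 0.114 ± 0.0130 (n = 2) and 0.0949 ± 0.0233 CPM in SUM44 LTED-A and LTED-B. It fell with log2 fold changes of -5.78 (SE 0.24; edgeR adjusted p 4.29e-08) and -5.92 (SE 0.21; edgeR adjusted p 9.94e-09), and with -5.72 and -5.85 without SUM44F replicate 1. No library of MM134 cells exceeded 7 counts of FPR3. FPR1 was at 0.307 to 0.760 CPM across the group means, and its log2 fold changes of -0.99 to -0.25 did not pass the thresholds in any of the 6 variants. FPR2 had at most 19 counts in a library.

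The glucocorticoid receptor gene NR3C1 differed between the lines. Parental MM134 libraries held 72.9 ± 1.74 CPM of it, those of SUM44F 0.202 ± 0.118 CPM. It fell in MM134 LTED-A (log2 fold change -0.94, SE 0.03, edgeR adjusted p 6.23e-15), and its log2 fold changes of -0.51 to -0.55 in the other 3 MM134 variants were short of 1.5-fold. Of 8 genes (the receptor and 7 genes known to be induced by it), 2 rose and 3 fell in MM134 LTED-A, 1 rose and 2 fell in LTED-B and in LTED-D, and 1 rose and 3 fell in LTED-E. FKBP5, a co-chaperone of steroid receptors, rose in all 4, with log2 fold changes between 0.97 and 2.01. In SUM44, 1 rose and 1 fell in LTED-A and 0 rose and 1 fell in LTED-B. Of all genes tested, 20.3%, 15.9%, 17.6% and 19% were called in MM134 variants A, B, D and E. In SUM44 variants A and B, 13.7% and 17.3% were.

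ANXA2 fell in all 6 variants, and most in MM134 LTED-D and LTED-E. The gene (ENSG00000182718) lies at chr15:60347134-60402883. Parental MM134 libraries held 76.1, 73.4 and 77.8 CPM of it, those of LTED-A 42.7, 41.7 and 41.8 CPM and those of LTED-B 46.5, 44.5 and 47.5 CPM. In LTED-D it was at 2.78, 3.87 and 2.88 CPM, and in LTED-E at 3.19, 2.27 and 2.70 CPM. LTED-A and LTED-B each lay in a range of its own below the parental one, with the mean of LTED-A 13.2-fold above that of LTED-D and 15.5-fold above that of LTED-E, while LTED-D and LTED-E overlapped. The log2 fold changes were -0.85 (SE 0.06) in LTED-A, -0.71 (SE 0.06) in LTED-B, -4.56 (SE 0.08) in LTED-D and -4.80 (SE 0.08) in LTED-E.

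SUM44F cells started from a 5.26-fold higher level of ANXA2 than MM134 parental cells, with 431, 408 and 355 CPM, and SUM44PE cells held 371, 392 and 389 CPM. LTED-A had 171 and 206 CPM and LTED-B 224, 234 and 223 CPM. No library of either variant reached the lowest library of the parental cultures, which overlapped with each other. The log2 fold changes were -1.08 (SE 0.11) and -0.81 (SE 0.10), or -1.02 and -0.75 without SUM44F replicate 1 and -0.99 and -0.73 against SUM44PE. The processed pseudogenes ANXA2P1, ANXA2P2 and ANXA2P3, near-copies of the transcript, had at most 12 counts in a library, and adding them moved no log2 fold change of ANXA2 by more than 0.0038. The 10 tested genes nearest to ANXA2 with at least 5 CPM, 5 on each side, had median log2 fold changes of 0.06 in LTED-D and 0.10 in LTED-E, with a range from -0.68 to 2.19 and from -1.45 to 1.76.

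**Figure D2:**
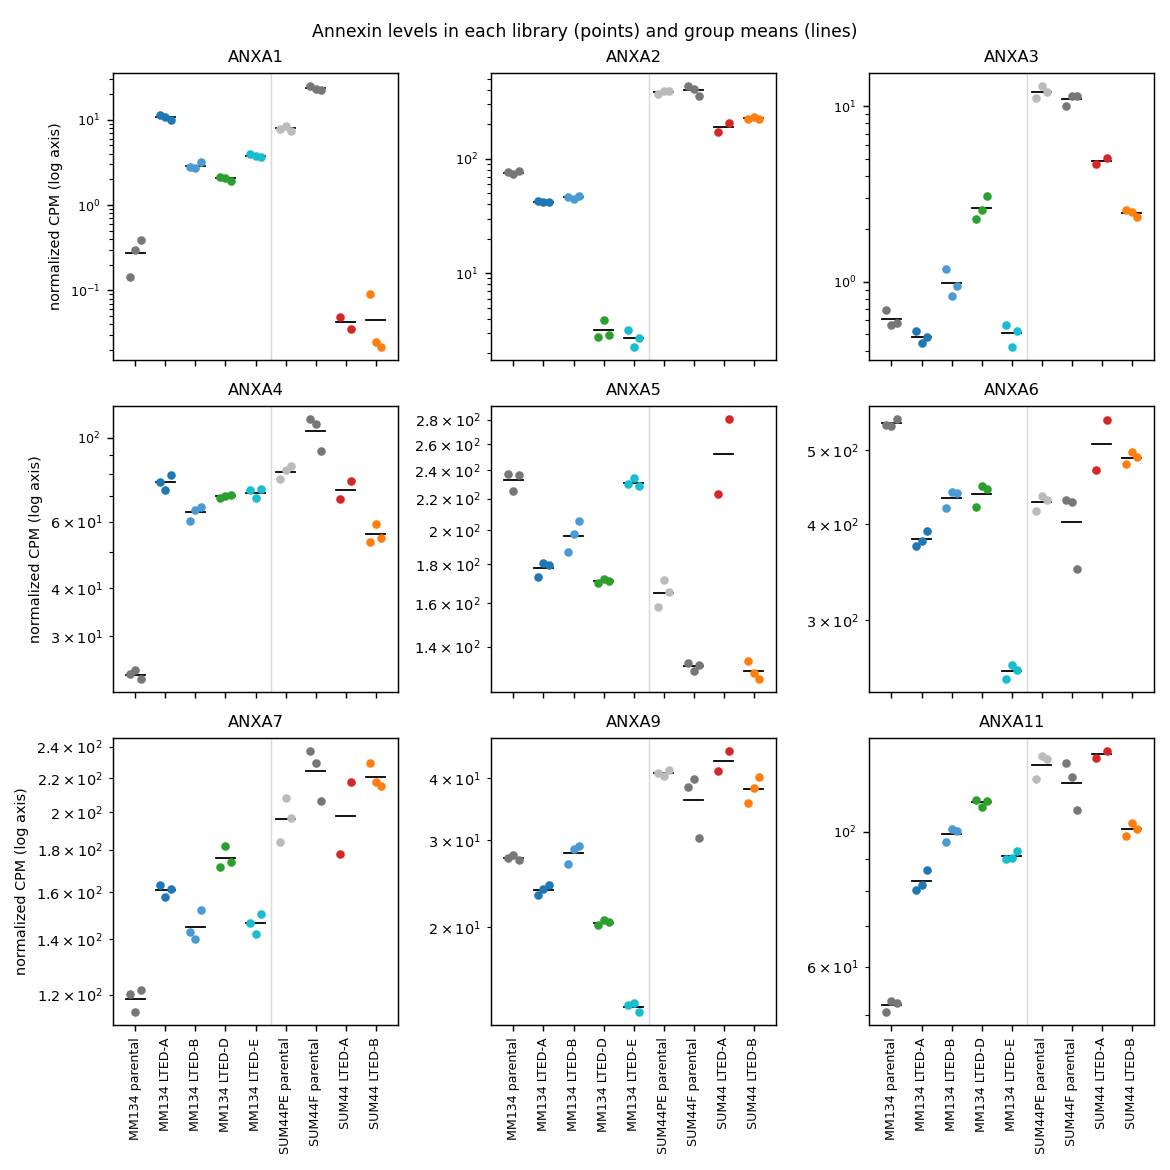
Normalized CPM (log axes, 1 panel a gene with its own range) of the 9 annexin genes in each library (points) and the mean of each group (lines). ANXA1 spans 553-fold between group means, ANXA2 146-fold and ANXA3 25.1-fold, while ANXA5 and ANXA7 span 1.94-fold and 1.89-fold.

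The S100 proteins that bind annexin tails are small calcium-binding dimers, and their transcripts did not move in parallel with ANXA2 in MM134 cells. S100A10, the partner of ANXA2, was at 3.77 ± 0.239 CPM in parental MM134. Variant A had 8.96 ± 0.0484 CPM, B 9.16 ± 0.218 CPM, D 12.1 ± 0.448 CPM and E 4.74 ± 0.538 CPM. It rose in 3 of the 4 variants, with log2 fold changes of 1.24, 1.28 and 1.69 (SE 0.08; edgeR adjusted p 9.44e-11, 1.12e-10 and 1.60e-12), and in LTED-E the change of 0.34 (SE 0.08) did not pass the thresholds. LTED-D thus had the highest S100A10 level among MM134 groups and an ANXA2 level of 3.18 ± 0.606 CPM. In SUM44, S100A10 fell from 128 ± 10.1 CPM in SUM44F to 39.0 ± 3.69 CPM (n = 2) in variant A and 4.14 ± 0.362 CPM in variant B. The log2 fold changes were -1.71 (SE 0.10; edgeR adjusted p 4.18e-07) and -4.95 (SE 0.10; edgeR adjusted p 2.29e-10), and -1.69 and -4.93 without SUM44F replicate 1.

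S100A6, which binds ANXA2 and ANXA11, moved in opposite directions among the MM134 variants. It was at 58.8 ± 2.52 CPM in parental cells, rose to 729 ± 7.22 CPM in LTED-A, 256 ± 3.47 CPM in LTED-D and 534 ± 11.2 CPM in LTED-E, and fell to 2.62 ± 0.308 CPM in LTED-B. The log2 fold changes were 3.63, 2.13, 3.19 and -4.48 in that order. S100A4 rose in LTED-A, LTED-D and LTED-E (log2 fold changes of 1.70, 1.52 and 1.12), and S100A11, a partner of ANXA1, did not pass the thresholds in any MM134 variant, with log2 fold changes of 0.19 to 0.46. In SUM44 LTED-A, 3 of the 4 genes fell, and in LTED-B all 4 did, beside 7.28% and 8.57% of all genes that fell. This was also so without SUM44F replicate 1, where S100A6 had log2 fold changes of -0.83 and -1.66 and S100A4 of -1.08 and -0.91. Against SUM44PE, S100A4 and S100A6 no longer passed in LTED-A (0.04 and -0.04), nor did S100A4 and S100A11 in LTED-B (0.20 and -0.55).

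**Figure D3:**
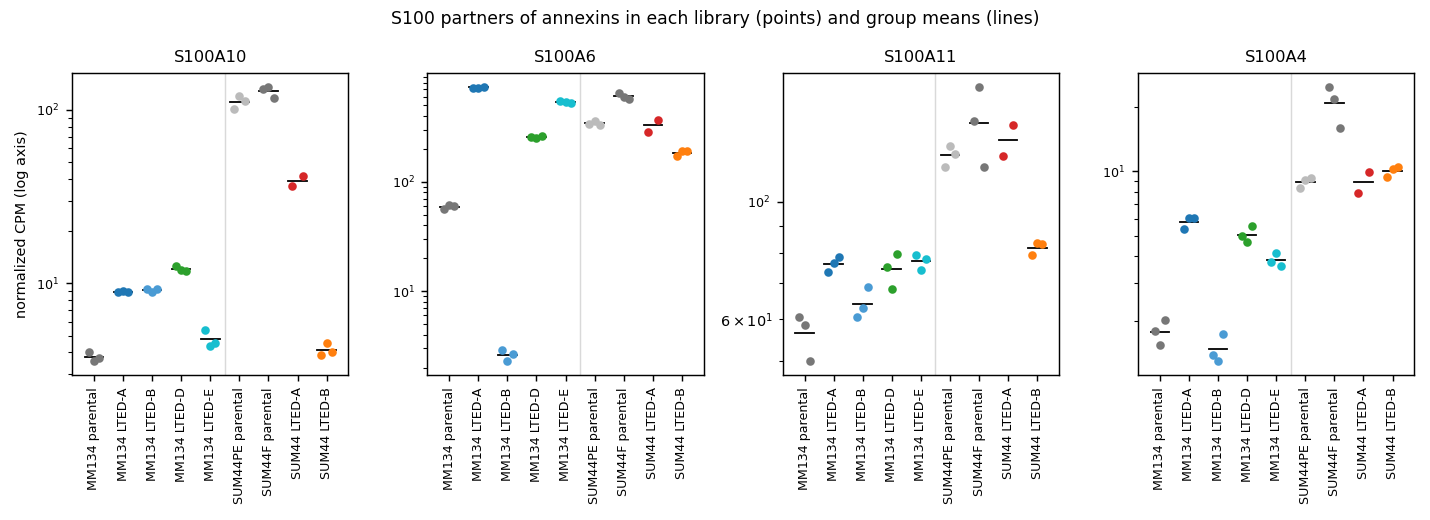
Normalized CPM (log axes) of 4 S100 genes whose proteins bind annexins, in each library (points) with group means (lines). S100A10 was highest among the MM134 groups in LTED-D and lowest among the SUM44 groups in LTED-B, and S100A6 fell to 2.62 CPM in MM134 LTED-B while it rose in the other 3 MM134 variants.

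Of the genes of plasminogen activation, in which the complex of ANXA2 takes part, PLAUR, the urokinase receptor, fell in SUM44 LTED-A (log2 fold change -1.01, edgeR adjusted p 0.000721) but not when SUM44F replicate 1 was left out (-0.95, edgeR adjusted p 0.00224).

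ANXA3, a member studied for its place in migration and blood vessel growth, was at low levels in MM134 and rose in LTED-D only by the thresholds used. It lies at chr4:78551747-78610451 (ENSG00000138772). It was at 0.686, 0.567 and 0.583 CPM in parental MM134 and at 2.29, 2.55 and 3.09 CPM in LTED-D, a log2 fold change of 2.13 (SE 0.18). The LTED-B libraries, at 1.18, 0.827 and 0.945 CPM, lay above the parental ones with a log2 fold change of 0.69 that did not pass. LTED-A and LTED-E were at 0.446 to 0.521 and 0.424 to 0.568 CPM, with log2 fold changes of -0.33 and -0.27. In SUM44F, ANXA3 was at 10.1, 11.5 and 11.5 CPM, and in SUM44PE at 11.1, 13.05 and 12.2 CPM. It fell to 4.70 and 5.08 CPM in LTED-A and to 2.56, 2.497 and 2.33 CPM in LTED-B. The log2 fold changes were -1.17 (SE 0.13) and -2.17 (SE 0.12), and -1.23 and -2.23 without SUM44F replicate 1. The SUM44 variants remained above the MM134 parental cells.

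ANXA4, an annexin of secretory epithelia that dampens calcium-activated chloride currents, rose in all 4 MM134 variants to nearly the same level. The gene (ENSG00000196975) lies at chr2:69644425-69827112. It was at 23.8, 24.3 and 23.0 CPM in parental cells and at 60.3 to 79.6 CPM over the 12 libraries of the variants. The log2 fold changes were 1.68, 1.42, 1.57 and 1.60 in variants A, B, D and E (SE 0.04 each). In SUM44F it was at 112, 108 and 92.3 CPM, and in SUM44PE at 77.5, 81.9 and 84.3 CPM. LTED-A had 68.9 and 76.8 CPM and LTED-B 53.0, 59.3 and 54.5 CPM. All variant libraries were below both parental cultures, but only LTED-B passed the thresholds, with log2 fold changes of -0.51 (SE 0.10) and -0.91 (SE 0.09). Without SUM44F replicate 1 they were -0.46 and -0.86, and against SUM44PE LTED-B no longer passed (-0.52).

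ANXA11, which tethers RNA granules to lysosomes and binds the calcium sensor PDCD6, also rose in all 4 MM134 variants. It lies at chr10:80150889-80205572 (ENSG00000122359). It was at 50.6, 52.6 and 52.3 CPM in parental cells and at 80.1 to 113 CPM in the variants, and its log2 fold changes were 0.67, 0.94, 1.12 and 0.82 in variants A, B, D and E (SE 0.03 each). LTED-D, at 113, 110 and 112 CPM, was above all libraries of the other MM134 variants. In SUM44 it was at 130, 123 and 109 CPM in SUM44F, 132 and 136 CPM in variant A and 98.3, 103 and 101 CPM in variant B. The log2 fold changes of 0.16 and -0.26 (0.21 and -0.20 without SUM44F replicate 1) did not pass. Among 8 genes of PDCD6 and related calcium sensors and of the ESCRT machinery they recruit, edgeR and DESeq2 called 0 in each of the 6 variants. In each variant 4 to 7 had an unadjusted p under 0.05, and the log2 fold changes of the 8 lay between -0.30 and 0.51. The share of all genes under that cutoff is not given here, so nothing is read from the 4 to 7. By edgeR, 13.7% to 20.3% of all tested genes were called in these variants.

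**Figure D4:**
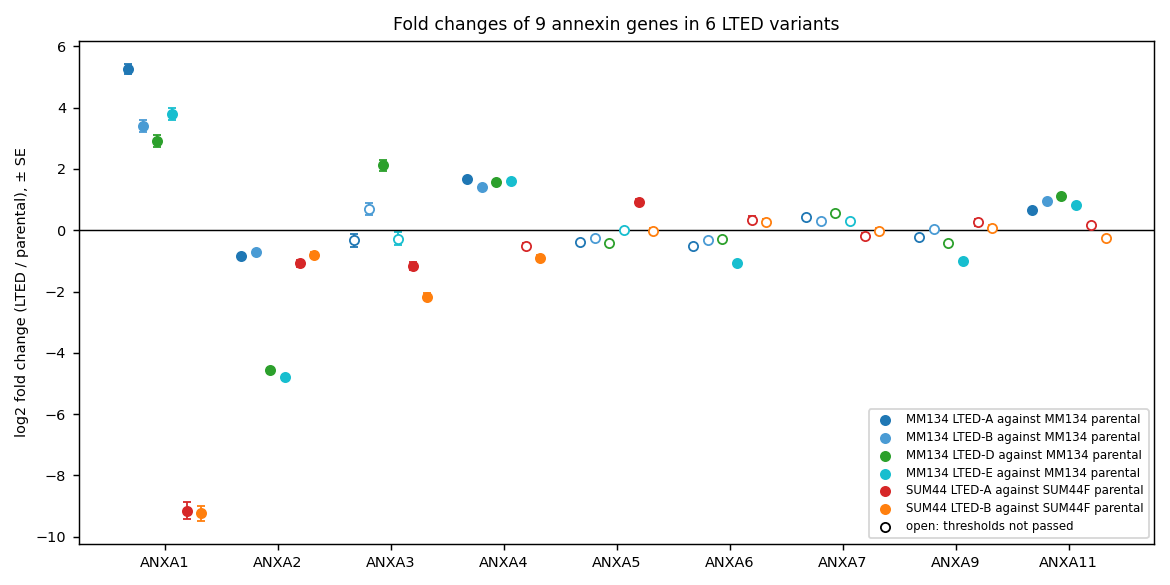
Log2 fold change of each annexin gene in the 6 LTED variants against the parental cells of the same line, with standard errors; filled points passed the thresholds and open points did not. ANXA1 lies above 0 in the MM134 variants (2.91 to 5.28) and below it in the SUM44 variants (-9.15 and -9.24), ANXA2 lies below 0 in all 6, and ANXA4 and ANXA11 pass upward in all 4 MM134 variants.

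ANXA5, ANXA6 and ANXA9 were each called in a single variant and ANXA7 in none, and their group means spanned 1.94-fold, 2.11-fold, 3.13-fold and 1.89-fold in the order ANXA5, ANXA6, ANXA9, ANXA7. ANXA5, known for its tight binding to phosphatidylserine and its use as a stain for dying cells, lies at chr4:121667946-121696995 (ENSG00000164111). Parental MM134 libraries held 237, 225 and 236 CPM, and variants A, B, D and E held 173 to 181, 187 to 205, 170 to 172 and 229 to 234 CPM. No MM134 change passed, with log2 fold changes of -0.43 to -0.00. In SUM44 it was at 133, 130 and 132 CPM in SUM44F and at 223 and 281 CPM in LTED-A, a rise by a log2 fold change of 0.94 (SE 0.10), which was 0.94 without SUM44F replicate 1 as well and 0.65 against SUM44PE (158, 172 and 165 CPM). LTED-B, at 134, 129 and 127 CPM, overlapped with SUM44F.

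ANXA6, which has a doubled annexin core and binds cholesterol-rich endosomes, lies at chr5:151100706-151157815 (ENSG00000197043). From 538, 537 and 549 CPM in parental MM134 it fell only in LTED-E by the thresholds, to 251, 262 and 258 CPM (log2 fold change -1.06, SE 0.03). Variants A, B and D, at 375 to 448 CPM, were all below the parental libraries with log2 fold changes of -0.51, -0.32 and -0.29. In SUM44 it was at 350 to 431 CPM in SUM44F and 471 to 546 CPM in the variants, with log2 fold changes of 0.34 and 0.28 (0.39 and 0.33 without SUM44F replicate 1) that did not pass.

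ANXA9, an annexin whose core has lost the usual calcium sites, lies at chr1:150982249-150995634 (ENSG00000143412). From 27.7, 28.0 and 27.3 CPM in parental MM134 it fell in LTED-E, to 13.9, 14.1 and 13.5 CPM (log2 fold change -0.99, SE 0.04). In LTED-D it was at 20.2 to 20.7 CPM, with a log2 fold change of -0.42. The SUM44 groups ranged from 30.2 to 45.3 CPM over all libraries, with log2 fold changes of 0.27 and 0.08 (0.31 and 0.12 without SUM44F replicate 1). LTED-E was thus the variant in which ANXA2, ANXA6 and ANXA9 all fell.

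ANXA7, also called synexin, lies at chr10:73375101-73414076 (ENSG00000138279) and passed the thresholds in none of the 6 variants. It was at 114 to 121 CPM in parental MM134 libraries and 140 to 182 CPM in the MM134 variants, every one above every parental library. Its log2 fold changes were 0.43, 0.29, 0.58 and 0.31, and the value in LTED-D lay just under 0.585, which is 1.5-fold. DESeq2 and RLE scaling put it at 0.59 and past that line, as did 4 of the fits that left out 1 library. In SUM44 the log2 fold changes were -0.18 and -0.02 (-0.14 and 0.02 without SUM44F replicate 1). A long noncoding gene on the opposite strand shares exon bases with ANXA7, but had a mean of 0.114 CPM.

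Among the remaining annexin genes, ANXA8, ANXA8L1 and ANXA10 were nearly silent, and ANXA13 was low, at 0.730 to 1.71 CPM. ANXA8 had 19 to 28 counts in the SUM44F libraries, 6 to 13 in SUM44PE and at most 5 in any other library. SUM44 LTED-A had 0 and 3 counts and LTED-B 0 to 1. ANXA8 passed the thresholds in LTED-B (edgeR adjusted p 0.000367, or 0.000816 without SUM44F replicate 1) and not in LTED-A (edgeR adjusted p 0.00158, or 0.00318), and the difference between the variants was not tested. Reads of ANXA8 and its near-identical copy ANXA8L1, at 2 to 34 counts, could have been divided between them. ANXA10 had at most 11 counts and was not tested. ANXA13 had 25 to 151 counts a library, and edgeR and DESeq2 called 0 changes of it in the 6 variants, none of them with an unadjusted p under 0.05 in MM134.

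Counted by variant, 4 of the 9 annexins were called in MM134 LTED-A, 3 higher and 1 lower, where 20.3% of all 26061 tested genes were called, 10.5% higher and 9.82% lower. In LTED-B 4 were called, 3 higher and 1 lower, beside 15.9% of all genes (8.11% higher, 7.75% lower). In LTED-D 5 were called, 4 higher and 1 lower, beside 17.6% (9.63% higher, 7.95% lower), and in LTED-E 6, 3 in each direction, beside 19% (8.71% higher, 10.3% lower). In SUM44 LTED-A 4 were called, 1 higher and 3 lower, beside 13.7% of 26834 genes (6.39% higher, 7.28% lower), and in LTED-B 4, all lower, beside 17.3% (8.69% higher, 8.57% lower). The libraries of variant and parental cells did not overlap for 9, 8, 9 and 7 of the 9 annexins in MM134 variants A, B, D and E, beside 58.7%, 53.6%, 57% and 57.2% of all genes, and for 8 and 6 in SUM44 variants A and B, beside 52.9% and 59.7%. The median log2 fold change of the 9 was -0.22, 0.29, 0.58 and -0.00 in MM134 variants A, B, D and E and -0.18 and -0.26 in the SUM44 variants, while that of all genes lay between -0.09 and 0.02. Variants of a line share their parental libraries, and since the genes were chosen with these changes known, nothing is read from the counts. Between the parental cultures SUM44PE and SUM44F, 1 of 9 was called (ANXA1, lower in SUM44PE), beside 5.57% of all 27457 genes (2.85% higher, 2.72% lower). Their libraries did not overlap for 4 of the 9, beside 40% of all genes. The average LTED change of the variants differed between the lines for 7 of the 9, 4 higher and 3 lower in MM134. This stands beside 21% of 29608 genes (10.9% higher, 10.1% lower).

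The lines differed before long-term deprivation. SUM44F cells had higher levels than MM134 parental cells of 6 annexins and a lower level of 1, beside 38.1% of 29608 genes called in either direction (19% higher, 19.1% lower). The libraries of the lines were apart for each of the 9, beside 66.3% of all genes. The log2 differences in level were 6.41 for ANXA1, 4.17 for ANXA3, 2.39 for ANXA2, 2.14 for ANXA4, 1.22 for ANXA11, 0.92 for ANXA7 and -0.82 for ANXA5. Without SUM44F replicate 1 they were 6.37, 4.23, 2.33, 2.08, 1.16, 0.87 and -0.83. The differences of ANXA9 (0.38) and ANXA6 (-0.43) did not pass.

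Compared per kilobase of the MANE Select transcript, the family had a different make-up in each line. In MM134 parental cells ANXA6 made up 40.6% of the summed level of the 9 genes and ANXA5 30.8%. In SUM44F cells ANXA2 led with 38.1%, followed by ANXA6 with 20.7%. ANXA2 went from 10.6% in MM134 parental cells to 0.525% in LTED-D and 0.508% in LTED-E, and from 38.1% in SUM44F to 19.9% and 26.7% in SUM44 LTED-A and LTED-B. In LTED-E, where ANXA6 fell, ANXA5 led with 41.0%. ANXA1 was at most 2.48% (SUM44F). The transcript of ANXA11 is 6734 bases long, the longest of the 9, and its share was 1.67% to 4.26%.

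**Figure D5:**
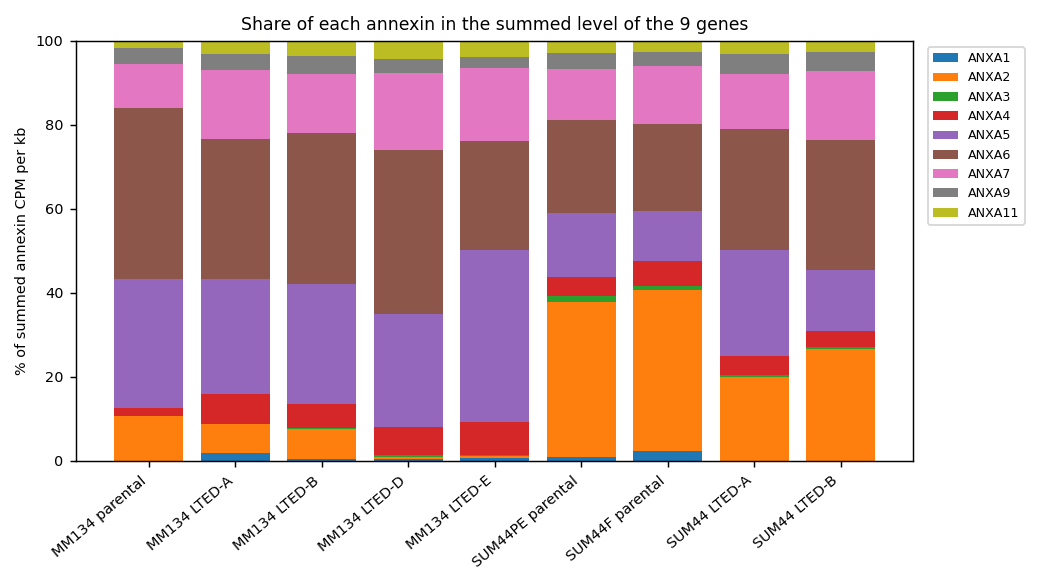
Share of each annexin gene in the summed level of the 9 genes, as a percentage of the summed normalized CPM per kilobase of transcript, from the mean of each group. ANXA2 holds 38.1% in SUM44F and 10.6% in MM134 parental cells, and is hardly visible in MM134 LTED-D and LTED-E (0.525% and 0.508%).

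Other genes of membrane repair and of phosphatidylserine exposure, the lipid that annexins meet, moved in part. EHD2, an ATPase at caveolae, rose in all 4 MM134 variants, from 5.36 ± 0.0920 CPM to between 9.59 and 13.8 CPM, with log2 fold changes of 0.85 to 1.35. MYOF, a ferlin that fuses vesicles with torn membrane, fell in LTED-A (-1.21) and LTED-E (-1.41). In the SUM44 variants edgeR and DESeq2 called 0 of 6 tested genes of this list, where 1 and 3 had an unadjusted p under 0.05. The share of all genes under that cutoff is not given here. Of 9 tested scramblases and flippases, which move phosphatidylserine across the membrane, 3 fell in MM134 LTED-A, 1 rose and 3 fell in LTED-B, and 1 rose and 2 fell in LTED-D and in LTED-E. The flippase ATP11B rose from 0.835 ± 0.150 CPM to 8.18 ± 0.739 CPM in LTED-B, 3.66 ± 0.198 CPM in LTED-D and 25.3 ± 0.856 CPM in LTED-E, and fell in both SUM44 variants, with log2 fold changes of -1.33 and -0.81 (-1.34 and -0.82 without SUM44F replicate 1). PLSCR3 and ATP8A1 fell in all 4 MM134 variants, with log2 fold changes of -0.64 to -1.85 and -0.66 to -1.65. In SUM44, 0 rose and 2 fell in LTED-A, and 2 rose and 1 fell in LTED-B. The counts of both lists stand beside 20.3%, 15.9%, 17.6% and 19% of all genes called in MM134 variants A, B, D and E. For SUM44 variants A and B these shares were 13.7% and 17.3%.

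Genes with levels most like those of the 3 widest-ranging members were found among 13886 genes by Pearson's r of log2(CPM + 1) over the 9 group means, which share their libraries and cell lines. For ANXA1 they were PPP2R3A (r = 0.980), TP53INP2 (0.961) and CCPG1 (0.952), and for ANXA3 RPS6KA2 (0.987), TMEM139 (0.975) and PPL (0.975). For ANXA2 they were TRIL (0.970), PCDHA11 (0.954) and the antisense gene CPVL-AS2 (0.951). TRIL followed the drop of ANXA2, with a mean of 81.7 CPM in MM134 parental cells, 4.41 CPM in LTED-D and 5.79 CPM in LTED-E, but also fell to 29.3 and 15.7 CPM in LTED-A and LTED-B. PPP2R3A moved less than ANXA1, from 11.5 to 24.7 CPM between MM134 parental cells and LTED-A and from 39.4 to 9.64 CPM between SUM44F and LTED-A.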

How the data were processed

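RNA-Seq of MM134 and SUM44 cells was analysed from the table the authors deposited, which holds estimated counts per Ensembl gene quantified by Salmon 0.6.0 on hg38 (Ensembl release 82) from stranded total RNA libraries. The counts are not normalized, and 48.7% of the values are not whole. The strand setting and how reads of near-identical copies were divided are not given in the sources used here. Gene symbols and coordinates come from GENCODE v44, which lists 56434 of the 60619 IDs, and promoter sequences from RefSeq.

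The members, gene lists and tests were chosen with earlier results of these data known. All 9 annexins were named. From each list at most 4 called genes with the largest change were to be named, and genes beyond that (for example S100A11 and FPR1) were chosen after their values were seen. Groups came from the sample titles. Counts were rounded to whole numbers, filtered with filterByExpr, scaled by TMM and tested with edgeR 4.0.16 in R 4.3.3 (two-sided quasi-likelihood test, p-values adjusted over all tested genes by Benjamini-Hochberg), with 1 fit for the 5 MM134 groups, 1 for SUM44F and the SUM44 variants, 1 that added SUM44PE, and 1 of all 9 groups. Standard errors are the log2 fold change divided by the square root of F. For the difference between the lines, the average SUM44 LTED change was subtracted from the average MM134 LTED change (log2). Replicates 2 and 3 of SUM44 LTED-A had a chi-square per degree of freedom of 0.312 over genes with at least 20 counts, against 2.35 to 58.3 for the other 26 pairs of replicates, and their counts were averaged.

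In simulated data with 200 changed genes, 139 were recovered for MM134 LTED-A (81 of 102 at 4-fold and 58 of 98 at 2-fold, among 25356 genes) and 81 for SUM44 LTED-A (58 of 103 and 23 of 97, among 26037), with 0 false calls. The simulated counts followed the negative binomial model that edgeR fits. Far fewer genes were changed than the 20.3% and 13.7% called in the data, so the 0 false calls need not hold there. Alternatives were RLE scaling, DESeq2 1.42.0, other filters and thresholds, fits of the compared groups alone, a replicate block, the ANXA2 pseudogenes summed into ANXA2, SUM44 LTED-A replicates kept separate, and each library left out in turn. SUM44PE in place of SUM44F was added after seeing the data. Tables were handled with pandas 2.3.3 and figures drawn with matplotlib 3.10.9. Protein sequences, microarray and qPCR data were not used here. Some genes of the lists are not reported here.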

Additional observations from a re-analysis of the deposited data

Results flagged for a closer look

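The average LTED change of the variants differed between MM134 and SUM44 for 7 of the 9 annexins, beside 21% of all 29608 genes. This was by an interaction term in the fit of all 9 groups. The value is the average MM134 LTED change less the average SUM44 LTED change, in log2. It was 13.02 (SE 0.25) for ANXA1, -1.79 (SE 0.10) for ANXA2, 2.22 (SE 0.17) for ANXA3, 2.28 (SE 0.08) for ANXA4, -0.73 (SE 0.07) for ANXA5, -0.86 (SE 0.07) for ANXA6 and 0.93 (SE 0.06) for ANXA11. ANXA1 and ANXA4 moved up in every MM134 variant and down in both SUM44 variants, although ANXA4 in SUM44 LTED-A did not pass the thresholds. ANXA2 fell in every variant of both lines, but its MM134 log2 fold changes were split. They were -0.85 (LTED-A) and -0.71 (LTED-B) against -4.56 (LTED-D) and -4.80 (LTED-E), beside SUM44 values of -1.08 (LTED-A) and -0.81 (LTED-B). The -1.79 of ANXA2 thus rests on MM134 LTED-D and LTED-E, and is not a difference shared by all MM134 variants. The value of ANXA1 rests on 1 to 4 counts a sample in the SUM44 variants. Without SUM44F replicate 1 the values were 12.98, -1.85, 2.28, 2.22, -0.74, -0.91 and 0.88 in the same order, all still past the thresholds. Against SUM44PE they were 11.46, -1.84, 2.36, 1.92, -0.41, -0.77 and 1.03, of which that of ANXA5 no longer passed. ANXA9 (-0.58) lay just below 1.5-fold and passed under several alternatives, among them without SUM44F replicate 1 (-0.62). ANXA7 (0.50) did not pass. The members were chosen with these data known, so the values are a description. Their SEs come from the spread between wells, and that between variants, each a single derivation, does not enter them. For ANXA5, the log2 fold change was 0.94 in SUM44 LTED-A and -0.02 in SUM44 LTED-B.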

How the results depend on the processing

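With a fold change minimum of 2, the number of annexins called was 2 in MM134 LTED-A, 2 in MM134 LTED-B, 2 in SUM44 LTED-B and 4 in the difference between the lines. With no fold change minimum it was 8 in MM134 LTED-A, 7 in LTED-B and 9 in LTED-D. Requiring at least 10 counts in every sample removed ANXA1 from each fit, and left 0 annexins called between SUM44PE and SUM44F. Under the other alternatives, each count stayed within 1.5 times its value, also with each library left out in turn. Of 1206 values of single annexins under alternatives, 1146 moved by less than the spread between replicates, 60 moved by more and 0 reversed a called direction. Of 48 same-numbered pairs of libraries, 14 had a correlation of deviations above 0.1 (-0.498 to 0.368 over 12265 genes). Pairs with different numbers were not compared, so this does not show whether replicate numbers pair the samples. The main fits took the samples as unpaired. The fit with a replicate block gave 4, 4, 5 and 6 called annexins in MM134 variants A, B, D and E and moved no log2 fold change by more than 0.0485. RLE scaling moved none by more than 0.0490. With 1 to 4 counts a sample, the depth limits the size of the fall of ANXA1 in the SUM44 variants.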
